A study of Homo sapiens
Mus musculus with 2 samples.

Results

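Human-rich low-UMI barcodes are the shallow barcodes of a Drop-seq experiment whose RNA was mostly human. They were chosen by 2 measured values, a total of 300 to under 1000 UMIs (unique molecular identifiers, counted once per captured transcript) and at least 50% of UMIs on human genes. The rule was met by 133 of 6000 barcodes. The question was whether they carry the transcripts of TALL-104, the smaller of the human lines in the mixture, and 6 genes of cytotoxic T cells served as its markers. The rule singled out no human gene, although the markers and all other genes entered its sums of UMIs. It did not use the make-up of the human UMIs, which could thus be compared with that of other barcodes. The members were chosen with earlier results of these data known.

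The samples were 2 libraries of the same mixture, equal parts of 4 established lymphocyte cell lines with no genotype or drug contrast. Jurkat (human CD4+ T cells), TALL-104 (human CD8+ T cells), EL4 (mouse CD4+ T cells) and IVA12 (mouse B cells) were all present in both. TALL-104 was grown with interleukin-2, which the study's methods give for no other line. They differed in the loading concentration of 150 or 300 cells per µl, with 1 library for each, and are called the 150 library and the 300 library. Nothing in the labels says that the suspensions were prepared separately, and tests across the libraries measure only the spread between these samples, which may be technical.

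Cytotoxic T cells kill by emptying granules onto a target. Perforin opens the target membrane, granzymes enter and cleave proteins inside, and chemokines released alongside draw in other leukocytes. TALL-104 is a leukaemic T cell line known for such killing, while Jurkat is a T cell leukaemia line used to study receptor signalling and interleukin-2 secretion and is not a killer line. Both are T cells, so shared T cell genes would separate them poorly, whereas granule genes should separate them well.

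The 150 library had 2000 barcodes with 2398956 UMIs in all, and the 300 library had 4000 with 8707135. The members numbered 51 in the first and 82 in the second. They were set against human cells, which had at least 1000 UMIs of which at least 90% were human (87 and 318 barcodes), and against the other low-UMI barcodes, which had the same 300 to under 1000 UMIs but were under 50% human (1124 and 2755 barcodes). Mouse cells, with at least 1000 UMIs of which at most 10% were human (85 and 685 barcodes), served as the background for human transcripts in droplets of another cell type. The libraries shared 1 barcode, and it was not a member.

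Members of the 150 library had a lowest total of 301, a median of 528 and a highest of 962 UMIs. The median of human UMIs was 385 (155 to 921), and the median human share was 73.2%. In the 300 library totals ran from 318 to 992 UMIs with a median of 618.5, the median of human UMIs was 465.5 (166 to 915), and the median human share was 75.5%. Human cells had medians of 6229 and 3556.5 human UMIs. The medians of mouse UMIs were close to those of human cells, at 119 and 155 in the members against 111 and 136.5 in human cells. A median of 320 and 375 human genes was detected per member, against 2593 and 1948 in human cells. After each barcode was thinned to 200 human UMIs, the median number of human genes was 178 and 179 in members and 182 and 184 in human cells, so that most of the gap in detected genes went with depth.

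The 6 markers together took 0.224% of the members' human UMIs in the 150 library (95% exact interval 0.165 to 0.298%, 47 UMIs) and 0.572% in the 300 library (0.50 to 0.650%, 230 UMIs). In human cells they took 0.00405% and 0.00332%, and in the other low-UMI barcodes 0.0125% and 0.0173%. The members' share was above both in each library, and no interval of the members met one of theirs. In mouse cells, which held few human UMIs, the share was 0.0439% and 0.0318%. The mean over the libraries was 0.398% ± 0.246 (SD, n = 2) in the members. These intervals cover counting error only, and since several marker UMIs can come from 1 barcode they are too narrow.

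**Figure D1:**
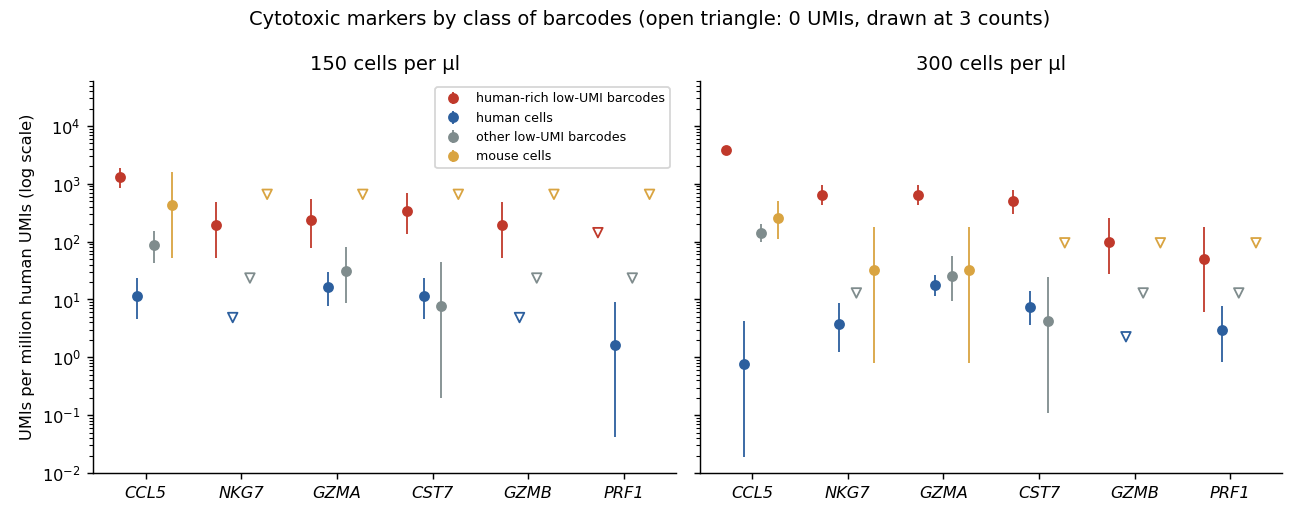
Level of each marker in CPM, counts scaled to 1000000 human UMIs (log scale) in 4 classes of barcodes, in the 150 and 300 libraries. Points are sums over the barcodes of a class with 95% exact Poisson intervals, and an open triangle marks a gene with 0 UMIs, drawn at the level of 3 counts. CCL5 lay at 1288 and 3778 in the members and at 11.4 and 0.755 in human cells.

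The chemokine gene CCL5 (ENSG00000161570), which encodes the leukocyte attractant RANTES, gave the most UMIs of the markers. The members held 27 CCL5 UMIs in the 150 library and 152 in the 300 library, which is 1288 and 3778 CPM (counts scaled to 1000000 human UMIs of the class). Human cells held 7 and 1 UMIs (11.4 and 0.755 CPM), and the other low-UMI barcodes held 11 and 33 (86.1 and 143 CPM). Both member values were above all those of the reference classes. The ratio to human cells was 113-fold in the 150 library (95% interval 48.2 to 309), where 6 of the 7 UMIs of human cells lay in 1 barcode. In the 300 library it was 5006-fold (885 to 199021) and rests on 1 UMI in human cells. The log2 fold change of CCL5 was 9.23 ± 0.38 (SE) against human cells, higher in both libraries. Its adjusted p was 6.8e-25 by edgeR's quasi-likelihood test with Benjamini-Hochberg adjustment over 4625 human genes. Taken alone, the 150 and 300 libraries gave 6.50 and 11.9. This gap is far wider than the SE, which is not the spread between libraries. Against the other low-UMI barcodes the log2 fold change was 4.61 ± 0.31 (adjusted p = 3.7e-16 by edgeR, and 0.0889 by DESeq2). Of the 27 CCL5 UMIs in the 150 library 20 came from 5 barcodes, and of the 152 in the 300 library 55 did, a concentration within barcodes that a test on summed counts does not see.

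NKG7 (ENSG00000105374) encodes a membrane protein of cytotoxic granules. It had 4 UMIs in the members in the 150 library and 26 in the 300 library, which is 191 and 646 CPM. Human cells had 0 and 5 UMIs, and the other low-UMI barcodes had 0 and 0. Against human cells NKG7 was at least 39.2-fold higher in the 150 library, with 3 counts per library taken as the limit for 0, and 171-fold higher in the 300 library (95% interval 64.7 to 571). The log2 fold change was 7.40 ± 0.71 (SE, adjusted p = 4.7e-11, edgeR), higher in both libraries. Against the other low-UMI barcodes NKG7 was at least 8.12-fold and 49.9-fold higher (adjusted p = 2.3e-08, edgeR). No NKG7 UMI was thus found in shallow barcodes that were mostly mouse.

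GZMA (ENSG00000145649) encodes granzyme A, a granule protease. The members held 5 and 26 GZMA UMIs (238 and 646 CPM). Human cells held 10 and 24 UMIs (16.2 and 18.1 CPM), and the other low-UMI barcodes 4 and 6 (31.3 and 25.9 CPM). GZMA was the marker with the most UMIs in human cells, in 11.5% and 6.60% of those barcodes, mostly as single UMIs at far greater depth. Its ratio to human cells was 14.7-fold (3.94 to 47.2) and 35.7-fold (19.7 to 64.9). The log2 fold change was 4.68 ± 0.51 (SE, adjusted p = 1.6e-09, edgeR) against human cells and 4.20 ± 0.58 (adjusted p = 6.4e-07) against the other low-UMI barcodes, higher in both libraries in each case.

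CST7 (ENSG00000077984) encodes cystatin F, an inhibitor of the cathepsins that process granule proteases. Its UMIs in the members were 7 and 20 (334 and 497 CPM), against 7 and 10 in human cells (11.4 and 7.55 CPM) and 1 and 1 in the other low-UMI barcodes. The members were above human cells 29.4-fold (8.80 to 98.2) and 65.9-fold (29.4 to 158). The log2 fold change was 5.44 ± 0.60 (SE, adjusted p = 1.8e-09, edgeR) against human cells and 6.27 ± 0.81 (adjusted p = 1.3e-07) against the other low-UMI barcodes, with the same direction in both libraries.

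GZMB (ENSG00000100453), which encodes granzyme B, the protease that cleaves caspases in the target, had 4 UMIs in the members of each library (191 and 99.4 CPM). It had 0 UMIs in human cells, in the other low-UMI barcodes and in mouse cells of both libraries. GZMB was therefore at least 39.2-fold and 43.9-fold higher than in human cells. It did not pass the filter on low counts, and with no filter its adjusted p was 0.0037 against human cells and 0.14 against the other low-UMI barcodes (edgeR).

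PRF1 (ENSG00000180644), which encodes perforin, had 0 UMIs in the members in the 150 library and 2 in the 300 library. Human cells had 1 and 4 PRF1 UMIs. The depth of the members allows up to 143 CPM in the 150 library, so a difference of PRF1 was not detectable there. The ratio in the 300 library was 16.5-fold (95% interval 1.49 to 115). PRF1 also failed the filter on low counts, and with no filter its adjusted p was 0.88 against human cells (edgeR). Of the 6 markers, 4 thus passed the filter and were higher in the members. Since their counts in the members carried them past the filter, that number is not independent of the direction.

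Detection per barcode depended on depth as well as on level. CCL5 was found in 10 of 51 members in the 150 library (19.6%, 95% exact interval 9.82 to 33.1%) and in 36 of 82 in the 300 library (43.9%, 33.0 to 55.3%). In mouse cells, which should lack human CCL5, it was found in 2.35% and 0.584% of barcodes, at medians of 45 and 34 human UMIs against 385 and 465.5 in the members. Among human cells it was found in 2 of 87 and 1 of 318. In the 150 library the far deeper human cells came above the members for GZMA, found in 3.92% of members and 11.5% of human cells. They came level for any marker, at 19.6% of members and 19.5% of human cells. PRF1 was found there in 0% and 1.15%. Members came above for NKG7 (5.88% against 0%), GZMB (7.84% against 0%) and CST7 (7.84% against 5.75%). Any marker was found in 52.4% of members and 12.3% of human cells in the 300 library. Thinned to 200 human UMIs, the share with CCL5 was 14.2% and 34.3% of members against 0.884% and 0.00975% of human cells, and with GZMA 2.66% and 9.82% against 0.377% and 0.398%. The thinning left out 2 and 1 members and no human cell. It kept only 44 and 32 of the other low-UMI barcodes, with CCL5 in 2.17% and 2.76%, and no mouse cell in the 150 library. The 7 mouse cells of the 300 library that had enough human UMIs showed CCL5 in 12.9% and at least 2 markers in 7.91%.

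Many members held no marker at all. Of the 51 in the 150 library 41 had none, 4 had 1 marker and 6 had at least 2 (11.8%, 95% exact interval 4.44 to 23.9%). Of the 82 in the 300 library 39 had none, 12 had 1 and 31 had at least 2 (37.8%, 27.3 to 49.2%). The intervals do not overlap, but with 1 library for each concentration the difference was not tested over replicates. After thinning, 6.49% and 18.7% of members had at least 2 markers, against 0.000348% and 0.000233% of human cells. The highest number of markers in 1 member was 5, in a barcode in the 150 library with 757 UMIs that held 2 NKG7, 1 GZMB, 3 GZMA, 2 CST7 and 4 CCL5 UMIs.

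**Figure D2:**
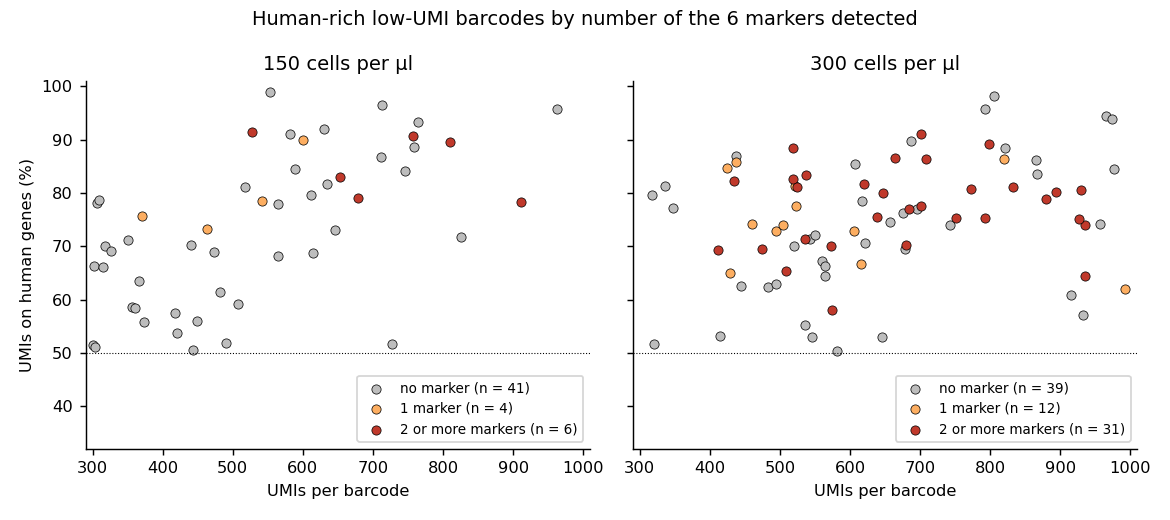
Each human-rich low-UMI barcode by its total UMIs (horizontal axis) and the percentage of its UMIs on human genes (vertical axis), in both libraries, coloured by the number of the 6 markers detected. The dotted line is the 50% limit of the rule. In the 150 library every member with a marker lies above 70% human, while in the 300 library members with markers lie across nearly the whole range.

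Markers were often found together with CCL5, less completely in the 300 library. In the 150 library each barcode with NKG7 (3), GZMB (4), GZMA (2) or CST7 (4) also had CCL5, and none of the 41 members without CCL5 had another marker. CCL5 in the 300 library accompanied NKG7 in 15 of 19 barcodes, GZMA in 12 of 15, CST7 in 11 of 16, GZMB in 2 of 4 and PRF1 in 1 of 2. Among the 46 members without CCL5 there, 4 had NKG7, 3 had GZMA, 5 had CST7, 2 had GZMB and 1 had PRF1. These are counts over barcodes of 1 library and carry no test.

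Most barcodes with at least 2 markers were members, counted over classes of very unequal size. There were 9 such barcodes in the whole 150 library, of which 6 were members, 1 was a human cell and 2 were mixed barcodes of at least 1000 UMIs and 50% to under 90% human. There were 40 in the 300 library, of which 31 were members, 2 were human cells, 6 were mixed barcodes of that kind and 1 was a mouse cell. As a share of its class, this was 25% of the 8 mixed barcodes against 11.8% of members in the 150 library. In the 300 library it was 15.4% of the 39 mixed barcodes against 37.8% of members. The other low-UMI barcodes gave 0 of 1124 and 0 of 2755, which allows shares of up to 0.267% and 0.109%. Most of these latter barcodes held too few human UMIs to show a pair of markers, with medians of 105 and 79.

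The marker share followed depth differently in the libraries. In the 300 library it was 0.661% in barcodes of 300 to 499 UMIs, 0.528% at 500 to 699 and 0.584% from 700 to under 1000, and then 0.0869% at 1000 to 1499, 0.0260% at 1500 to 1999 and 0.00332% from 2000 UMIs, all among barcodes at least 50% human. For the 150 library it was 0.0545%, 0.283% and 0.286% in the 3 bands of the members, 0.151% at 1000 to 1499 UMIs, 0.504% in only 5 barcodes at 1500 to 1999, and 0.00310% above. The 12 and 3 barcodes under 300 UMIs had 0 marker UMIs.

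**Figure D3:**
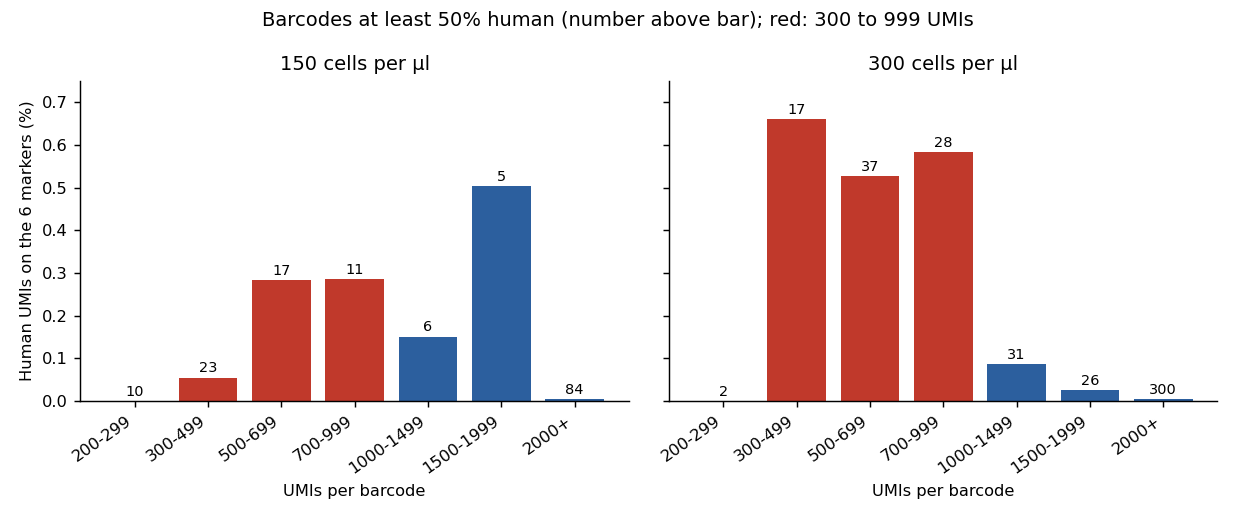
Percentage of human UMIs on the 6 markers, by total UMIs of the barcode, among barcodes at least 50% human in each library; the number of barcodes stands above each bar and red bars are the members' bands. The share stays between 0.528% and 0.661% in the members' bands in the 300 library and is near 0 from 2000 UMIs in both libraries.

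The human share also divided the members in the 150 library, where the 20 members under 70% human held 0 marker UMIs and the bands above held between 0.238% and 0.324%. In the 300 library the share was 0.364% in members of 50% to 60% human, 0.588% to 0.663% in the 3 bands from 60% to 90%, and 0.224% in the 5 members of at least 90%. Near the limits of the rule, the 8 and 4 members within 50 UMIs above the lower limit had 0 marker UMIs, as did the 9 and 1 barcodes within 50 UMIs below it. The 2 and 11 members within 100 UMIs below the upper limit held 0.306% and 0.513%, and the 5 and 13 barcodes within 100 UMIs above it held 0.188% and 0.133%. The 6 and 5 members under 55% human had 0 marker UMIs, and the 12 and 10 barcodes of 45% to under 50% human had 0 and 2.

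The genes in excess were then sought over all human genes. Of 4625 genes tested, 139 were higher in the members than in human cells (3.01% of those tested) and 142 were lower (3.07%). The threshold was an adjusted p under 0.05 by edgeR's quasi-likelihood test. A gene scarce in the other classes could pass the filter on low counts only through the members. The number of higher genes is therefore not independent of the filter. The higher genes had a median log2 fold change of 2.76 and the lower genes one of -1.05. These medians are not comparable, since the members' depth limits how far below human cells a gene can be measured, and 7 of the lower genes had 0 UMIs in the members. The median over all genes tested was -0.20, and it was -0.06 when counts were scaled by total human UMIs alone. With that scaling 165 genes were higher and 79 lower, and with DESeq2 127 were higher and 12 lower. Of the called genes, 134 of the 139 and 142 of the 142 had the same sign in each library taken alone. They were called from a fit to these same libraries, so this agreement is not a replication.

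Against the other low-UMI barcodes, 112 genes were higher in the members (2.42%) and 31 were lower (0.67%). Scaling by total human UMIs gave 122 higher and 71 lower, and DESeq2 gave 99 and 4. The median log2 fold changes of the 112 and 31 were 2.68 and -1.83, and the median over all genes was -0.10. Both comparisons share the members' sums and the same filter, so they are not independent, and ranks are among genes past that filter. CCL5 had rank 4 of 4625 genes by log2 fold change against human cells, and NKG7 rank 1 against the other low-UMI barcodes. The ranks of NKG7, CST7 and GZMA against human cells were 11, 22 and 30.

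**Figure D4:**
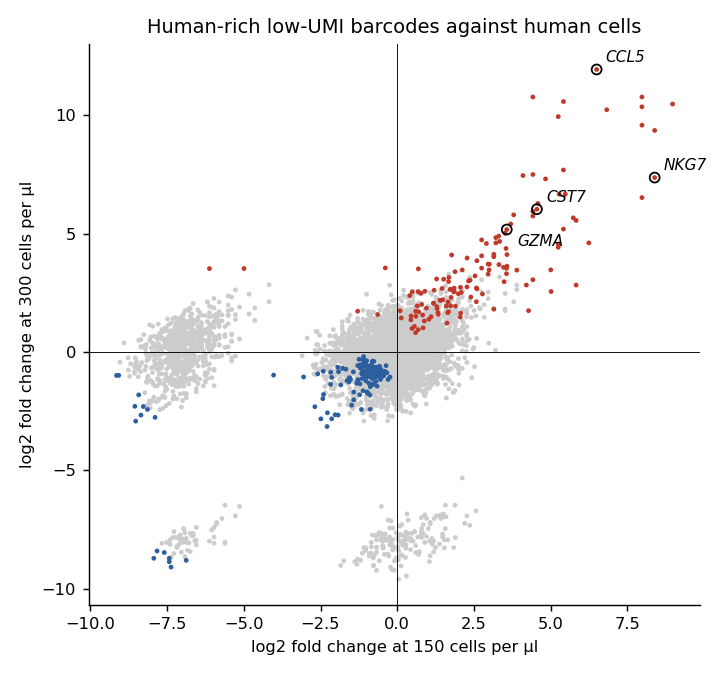
log2 fold change of human-rich low-UMI barcodes against human cells in the 150 library (horizontal axis) and 300 library (vertical axis), 1 point for each of 4625 genes. Red genes were higher and blue genes lower at an adjusted p under 0.05, and the 4 markers tested are circled. Detached groups of points at the left and bottom are genes with 0 UMIs in the members of a library, whose fitted values depend on a prior count; the red genes run towards the upper right, with CCL5 at the top.

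No table at hand pairs the other identifiers with symbols, so only the genes at the ends of the list are given, by identifier. ENSG00000143184 had 6 and 13 UMIs in the members and 0 and 0 in human cells, which makes it at least 58.8-fold and 143-fold higher (adjusted p = 3.0e-09, edgeR). It had 0 and 1 UMIs in the other low-UMI barcodes (adjusted p = 1.4e-05). ENSG00000107099 had 3 and 16 UMIs in the members and 0 and 0 in human cells, at least 176-fold higher in the 300 library (adjusted p = 4.8e-09), and 4 and 2 UMIs in the other low-UMI barcodes (adjusted p = 0.00047). Both genes had their member values above those of human cells in each library, which the rule for naming genes required. Their counts in the members carried both past the filter on low counts, so these results are not independent of the direction.

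At the other end, ENSG00000112759 had 0 UMIs in the members of both libraries against 48 and 167 in human cells, 77.9 and 126 CPM (adjusted p = 0.022, edgeR). ENSG00000108384 had 0 and 0 against 71 and 129 (adjusted p = 0.023). These absences are shallow. With 3 counts as the limit for 0, the genes were at least 1.69-fold and 1.31-fold lower in the 300 library, and in the 150 library the members' depth gave no bound above 1. Neither passed the threshold against the other low-UMI barcodes (adjusted p = 0.086 and 0.13), and both lost it against human cells under DESeq2 (adjusted p = 0.189 and 0.168).

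Members with and without markers were compared by these other genes. Genes without the markers were taken by their values in the other library. They had a log2 fold change over 2 against human cells and at least 10 UMIs in the members there. Only genes past the filter on low counts could be taken, and that filter used both libraries, including the members read. The lists were therefore not fully apart from the barcodes read. The list from the 300 library held 68 genes. Read in the 150 library, these genes took a lowest value of 3.50%, a median of 9.78% and a highest of 12.8% of human UMIs in the 6 members with at least 2 markers, and 7.08%, 8.62% and 13.2% in the 4 members with 1 marker. In the 41 members with no marker the median was 0.744% (0 to 12.5%), next to 0.741% in human cells (0.279 to 8.41%). Of those 41 members, 3 were at or above 3.50%, as were 2 of the 87 human cells. In the other low-UMI barcodes the median was 0.943%, and 30 of 1124 were at or above 3.50%. Summed over barcodes, the share was 1.68% in members with no marker, 0.812% in human cells and 1.06% in the other low-UMI barcodes. Members with no marker had a median of 310 human UMIs and human cells 6229, so near-equal medians do not show likeness.

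The list from the 150 library was short, at 8 genes. Read in the 300 library, it took a median of 1.29% of human UMIs in the 31 members with at least 2 markers (0.184 to 2.83%) and 1.06% in the 12 members with 1 marker (0 to 3.23%). The 39 members with no marker had a median of 0 and a highest value of 1.44%, and human cells a median of 0.0460% and a highest of 0.237%. The value of 0.184% was reached by 8 of the 39 members with no marker, by 10 of the 12 with 1, and by 11 of the 318 human cells. Of the 2755 other low-UMI barcodes, 164 reached it. These counts are not comparable across depths. Members with no marker had a median of 439 human UMIs, where 1 UMI can reach the limit, and human cells had 3556.5. The list, the limit and the split were chosen after values had been seen, and no test was made.

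**Figure D5:**
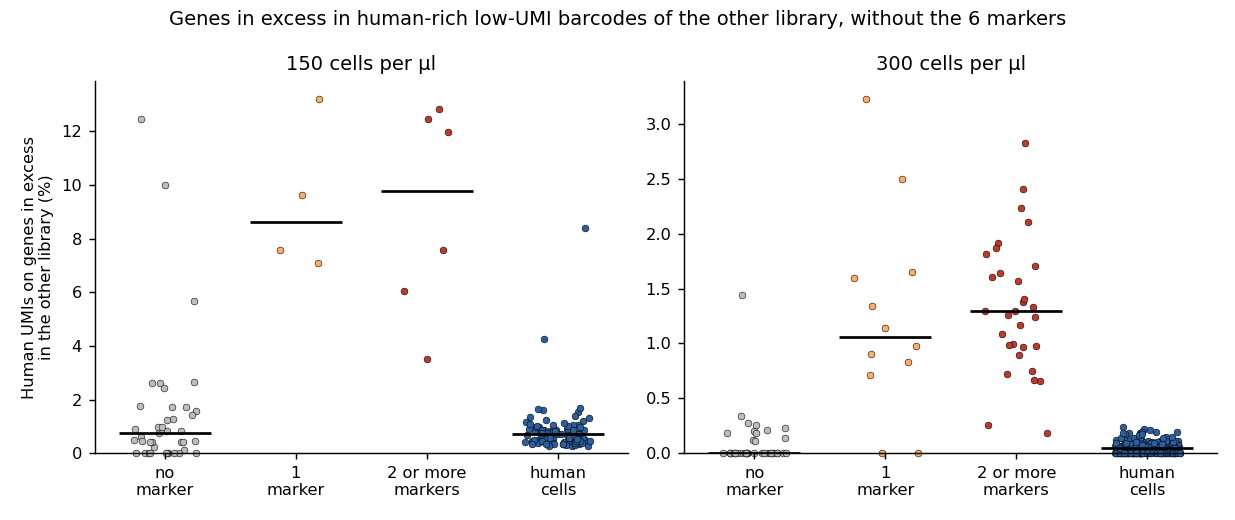
Percentage of each barcode's human UMIs on genes in excess in the other library (68 genes at left, 8 genes at right, without the 6 markers), for human-rich low-UMI barcodes with no marker, 1 marker and 2 or more markers and for human cells. Each point is a barcode, lines are medians, and the vertical axes differ. Members with markers sit mostly above human cells, at medians of 8.62% and 9.78% at left, while most members with no marker lie in the range of human cells.

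The summed profiles are given as a description over 3845 genes without the markers. These had at least 100 UMIs in human cells over both libraries, so genes scarce in human cells do not enter any of the values. In the 300 library the members with no marker (18749 human UMIs) had a Pearson's r of 0.685 with human cells and the members with at least 1 marker (21485 human UMIs) one of 0.515. The values in the 150 library were 0.668 (15694 human UMIs) and 0.451 (5272 human UMIs), where the unequal depths also bear on r. The members with markers were also lower against the other low-UMI barcodes (0.511 against 0.643 in the 300 library) and mouse cells (0.411 against 0.525). In the 300 library the other low-UMI barcodes themselves had an r of 0.894 with human cells, and mouse cells one of 0.726. These classes are therefore not independent comparators, and they cannot show whether the lower values were particular to human cells. Between the libraries, members with markers had an r of 0.437 with each other, and members with no marker one of 0.460. Both sums in these pairs are far shallower than those of human cells. The values are therefore not comparable with the r against human cells, and likeness between the libraries cannot be judged from them. The genes are not independent replicates, and the points of a library share its depth.

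Median totals were 491 UMIs in members with no marker, 502.5 in those with 1 and 718 in those with at least 2 in the 150 library, and 617, 513.5 and 680 in the 300 library. The median human shares were 70.1%, 77.0% and 86.3%, and 74.0%, 74.1% and 79.0%. Deeper barcodes have more UMIs in which a marker can be found, and how far depth accounts for the members with no marker was not tested. Mouse RNA was present in all groups, at medians of 124, 103.5 and 98 mouse UMIs and of 160, 125 and 156. At the CCL5 level of the other low-UMI barcodes, the members' human UMIs would have held 1.81 and 5.74 CCL5 UMIs, against 27 and 152 found.

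Cytotoxic markers thus bore on the label of candidate TALL-104 cells for only some of the members. At least 2 of the 6 were found in 6 of 51 and 31 of 82, and for the members with no marker, at medians of 310 and 439 human UMIs, these genes leave the label undetermined. Markers of Jurkat and of other cell types were not analysed here, and what the members with no marker are was not tested. In summed counts, fewer cells of a type and less RNA per cell cannot be told apart. The group is therefore called by its rule.

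Markers also occurred in the mixed barcodes above 1000 UMIs. Of 8 such barcodes in the 150 library, 3 had CCL5 with 34 UMIs in all, 25 of them in 1 barcode. Of 39 in the 300 library, 5 had CCL5 with 28 UMIs. These sums are 3204 and 373 CPM, against 1288 and 3778 CPM in the members.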

How the data were processed

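The authors made Drop-seq libraries on a Dolomite system, aligned reads with STAR 2.4.2a to a combined hg19 and mm10 reference (Cell Ranger reference 1.2.0, per the labels) and deposited raw UMI counts, genes by barcodes. The study's methods state that reads were downsampled with seqtk and processed with Drop-seq tools; that the deposited counts come from those reads is not stated. The authors' deposited counts were used as such, with 2398956 and 8707135 UMIs in all.

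Barcodes were classed by total UMIs and human share, and human UMIs were summed per class and library. These 6 sums (3 classes, 2 libraries) were fitted in edgeR 4.0.16 (R 4.3.3; quasi-likelihood, TMM, filterByExpr, library as a term, 2 residual degrees of freedom) with Benjamini-Hochberg adjustment at 0.05. The script was tested on simulated data. Cells were not treated as replicates. Each SE is the absolute log2 fold change over the square root of the test's F statistic, and is not the spread between libraries. Intervals are 95% exact (Clopper-Pearson, Poisson or conditional binomial), computed in SciPy 1.17.1, and cover counting error only. Every fold given as at least a value takes 3 counts for the class with 0 UMIs. It uses the measured value of the class with UMIs, without its counting error, and is not a confidence limit. Thinning to 200 human UMIs was computed exactly. No doublet caller was run. Members within 1 mismatch of a cell barcode numbered 1 and 1.

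The named genes are the 6 markers, whose identifiers came with the rule, and the called genes with the largest fold changes, if the sign held in each library and the higher class had 10 UMIs or more, at most 2 each way. The reference table (59792 genes) has no Ensembl identifiers, so further marker and gene lists planned were not applied. The members and lists were chosen with earlier results of these data known. Alternatives covered scaling, the count filter, DESeq2 1.42.0, the limits of the rule and leaving out a library.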

Additional observations from a re-analysis of the deposited data

Results flagged for a closer look

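Markers appeared in barcodes outside the tested comparisons, above the level in human cells of the same library. The mixed barcodes of at least 1000 UMIs and 50% to under 90% human held 0.405% of their human UMIs on the 6 markers in the 150 library (95% exact interval 0.293 to 0.545%, 8 barcodes) and 0.0520% in the 300 library (0.0370 to 0.0711%, 39 barcodes). The members held 0.224% (0.165 to 0.298%) and 0.572%. The mixed barcodes were thus above the members in the 150 library, where the intervals met, and below them in the 300 library. In mouse cells in the 300 library the share was 0.0318% (0.0153 to 0.0585%), from 10 marker UMIs among 31425 human UMIs, and 1 of the 685 barcodes had 3 markers.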

How the results depend on the processing

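The 139 genes higher than in human cells stayed within 1.5 times under 12 of 13 alternatives (97 to 179), and the 112 higher than in the other low-UMI barcodes under the same 12 (84 to 138). With members of at least 90% human, which leaves 14 barcodes, they were 11 and 4. The counts of lower genes were less stable. Against human cells, 142 became 76 with DESeq2's size factors, 79 with total human UMIs, 314 with no filter, 261 with a minimum of 10 UMIs over all sums, 12 with DESeq2 and 16 with no library term. Against the other low-UMI barcodes, 31 became 71 with total human UMIs, 49 with no filter, 96 with a minimum of 10 UMIs, 4 with DESeq2 and 8 with no library term; the cause was not tested. Leaving out the members with an N in their barcode, chosen after seeing the data, gave 150 and 96 against human cells. A single library leaves no residual degrees of freedom and gave no count. In each library alone, the named genes that were tested kept their sign in 32 of 32 values. For the genes given by identifier, the naming rule required this against human cells. The main fit used the same libraries, so this agreement is no separate evidence. Over the alternatives with a test, 189 of 198 values of named genes kept their side of the threshold, 8 lost it, 7 of these for the 2 lower genes and 1 for CCL5 against the other low-UMI barcodes under DESeq2, and 1 gained it. The marker share of 0.398% ranged from 0.224% to 0.572% between the libraries and the share of members with at least 2 markers (mean 24.8%) from 11.8% to 37.8%. The SD of these 2 libraries is too wide to judge the alternatives, and leaving out 1 library can never pass it. Other limits for the members gave 0.270% to 0.440% for the first share and 21.1% to 31.2% for the second. The second was 12.6% after thinning, 36.0% with at least 1 marker and 12.5% with at least 3. The main fit compares classes within each library, and the fit with no library term, given above, is the one without that pairing. Depth limits GZMB and PRF1, with at most 4 UMIs in the members of a library.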
